A study of Homo sapiens with 4 samples.

Results

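Glucose breakdown and the response to low oxygen were examined through 39 listed genes in MCF10A, a non-tumorigenic cell line from human breast epithelium. The list held 17 glycolytic enzymes, 4 glucose and lactate transporters, 4 kinases that regulate the pathway, 5 genes of the oxygen-sensing machinery and 9 targets of hypoxia-inducible factor (HIF) that act outside glycolysis. Members were found by symbol in the platform annotation, and each was read on the brightest probe set that named 1 gene. Of the 39, 36 had such a probe set among 19775 genes in all, and 34 reached the brightness minimum used for testing, a mean intensity of 14.7, as did 12951 genes in all. SLC2A3 and ENO2 lay below it, and the intensities of CA9, SLC16A1 and SLC16A3 were not analysed here.

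The study measured total RNA on 4 Affymetrix U133 Plus 2.0 arrays. The control group (n = 2) carried a control short hairpin RNA (shRNA). The labelled double knockdown group (n = 2) carried hairpins against CBL and CBLB, ubiquitin ligases that turn activated receptor tyrosine kinases over to degradation. All cells were kept in DFCI-1 medium and harvested in normal growth, and the labels name no low-oxygen treatment. Whether the 2 arrays of each group stand for separate cultures is not labelled, so the p-values reflect the spread among these 4 arrays alone, and that spread may be technical. In bulk RNA, fewer cells of a type and less RNA per cell cannot be told apart.

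Glycolysis turns glucose into pyruvate through a chain of cytosolic enzymes, and lactate dehydrogenase turns pyruvate into lactate. HIF is a pair of subunits of which the alpha subunit, HIF1A or EPAS1, is hydroxylated by the EGLN enzymes when oxygen is present, bound by VHL and degraded. When oxygen is low the alpha subunit persists and HIF raises transcription of many glycolytic genes and of genes for mitophagy, collagen maturation and pH control. HIF is set mainly by protein stability, so its own transcript level is not a measure of its activity.

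The transcript of CBL read 126 and 84.4 on the control arrays and 31.1 and 29.0 on the labelled double knockdown arrays (log2 difference -1.37 ± 0.15 SE, adjusted p = 0.00139 by limma). That of CBLB read 64.3 and 70.0 on the control arrays and 94.8 and 99.5 on the labelled double knockdown arrays (log2 difference 0.45 ± 0.088 SE, adjusted p = 0.0148), so CBLB was higher where the label says it was knocked down, a call that leaving out either array of that group ended (0.0861 and 0.132). That group is called the labelled double knockdown for this reason, and higher or lower is always relative to the control. Dimmer probe sets above the minimum had smaller falls for CBL, with log2 differences of -0.33 and -0.20, and a rise of 0.40 for CBLB. The array medians lay between 14.5 and 14.7 and the 95th percentiles between 646 and 664. The ratio of the 3′ to the 5′ control probe set of GAPDH was 1.07 to 1.09 in the control and 1.08 to 1.10 in the labelled double knockdown, and that of ACTB 1.57 to 1.62 and 1.62 to 1.68. Epithelial genes were present, with CDH1 at 899.6 and EGFR at 523 in the control. Markers of other cells were mixed: 2 of 4 measured leukocyte genes, 3 of 7 endothelial and fibroblast genes and 3 of 6 luminal genes reached the brightness minimum, and none of these was called (limma; 1, GATA3, at an unadjusted p under 0.05). PTPRC, CDH5, VWF and PGR lay below it, while COL1A1 read 143 and GATA3 202 in the control and 131 and 124 in the labelled double knockdown. Summed intensities in the control and the labelled double knockdown were 49.3 to 53.2 and 49.3 to 53.1 for the leukocyte list. They were 229.6 to 236 and 203 to 223 for the endothelial and fibroblast list, and 214 to 316 and 182 to 194 for the luminal list. Of 7 basal epithelial markers, KRT14 and KRT5 fell (-1.62 and -0.73), LAMB3 and EPCAM rose (1.08 and 0.40) and 3 were not called. The part of these markers in the differences of the members was not tested.

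Of the 34 members tested, 5 were higher and 4 lower at an adjusted p under 0.05 (limma, Benjamini-Hochberg over 12951 genes). Over all genes tested, 9.41% were called higher and 6.60% lower (16% in all). The 5 that rose were the HIF targets ANKRD37, P4HA1 and BNIP3 and the regulatory kinases PFKFB3 and PDK1. The 4 that fell were the glycolytic enzymes PKM, TPI1 and PGAM1 and the carbonic anhydrase CA12. None of the 16 tested enzymes of the pathway rose. The groups did not overlap in 13 members upward and 15 downward, beside 28.1% and 29.3% of all genes (57.5% in all). The members had a median log2 difference of 0.021, against -0.0086 over all genes tested, and a median size of 0.22 against 0.14. Log2 differences are of intensity + 16, which understates the change of dim genes.

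**Figure D1:**
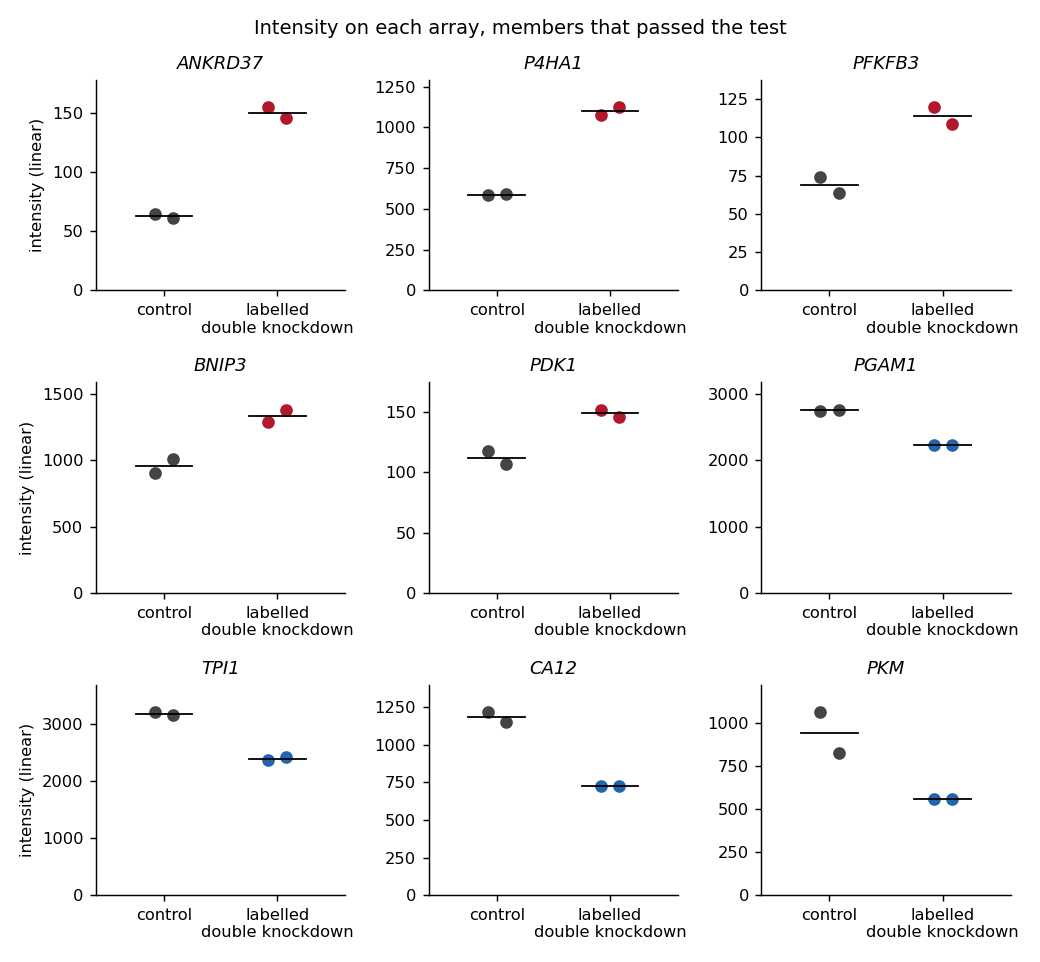
Linear intensity on each array (points) of the 9 members that passed the test, with the mean of each group as a line; the vertical axes start at 0 and differ between genes. In each panel the control arrays and the labelled double knockdown arrays do not overlap, from the rise of ANKRD37 from about 62.6 to 150.0 to the fall of PKM from 942 to 558.

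Glucose enters through facilitative transporters. SLC2A1, the transporter GLUT1 of most growing cells and a known HIF target, read 192 and 144 on the control arrays and 171 and 169 on the labelled double knockdown arrays. The control arrays lay on either side of the others, and the log2 difference was 0.030 ± 0.13 SE with a 95% confidence interval of -0.26 to 0.32 (adjusted p = 0.911). SLC2A3, the transporter GLUT3, read between 6.23 and 7.23 over the 4 arrays, below the minimum, and 2 further probe sets that it shares with SLC2A14 were not used.

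The enzymes of the upper part of the pathway, which spend ATP to prepare glucose for cleavage, had small differences in either direction, none of them called. HK1, the hexokinase of most tissues, read 965 and 925 on the control arrays and 828 and 839.5 on the labelled double knockdown arrays (log2 difference -0.18 ± 0.084 SE, adjusted p = 0.203). HK2, the inducible hexokinase, had a log2 difference of 0.011 ± 0.098 SE and overlapping groups, with an interval of -0.22 to 0.24. The isomerase GPI read 1339 and 1223 on the control arrays and 1051 and 1078 on the labelled double knockdown arrays (log2 difference -0.26 ± 0.090 SE, adjusted p = 0.0888), so its groups stood apart without passing the test.

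Phosphofructokinase, the main control point of the pathway, has liver, muscle and platelet subunits. The liver subunit PFKL had a log2 difference of -0.24 ± 0.091 SE (adjusted p = 0.119), the muscle subunit PFKM 0.14 ± 0.097 SE (0.375) and the platelet subunit PFKP 0.099 ± 0.087 SE (0.504). PFKL thus read lower and the other subunits higher on both labelled double knockdown arrays than on either control array, and none passed the test. Of the aldolases, which split the sugar, ALDOA had -0.11 and ALDOC -0.065, with intervals of -0.32 to 0.091 and -0.29 to 0.16.

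TPI1, which interconverts the triose phosphates that aldolase makes, fell 1.33-fold. Its intensities were 3199 and 3144 on the control arrays and 2359 and 2413 on the labelled double knockdown arrays, so each group was tight and the groups were far apart (log2 difference -0.41 ± 0.084 SE, adjusted p = 0.0164). Its second probe set, which like the brightest can match several transcripts, had a log2 difference of -0.38. The third, of the type made for 1 transcript but far dimmer, had 0.15 and overlapping groups between 38.3 and 54.4. The fall of TPI1 therefore rests on its brighter probe sets. With the mean of its probe sets the difference was -0.22 (adjusted p = 0.114), and on the probe set made for 1 transcript alone it was 0.15 (adjusted p = 0.469). Leaving out double knockdown replicate 1 or 2 also ended the call (0.134 and 0.119).

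In the lower part of the pathway, which yields ATP, GAPDH read 14878 and 15004 on the control arrays and 14671 and 14503 on the labelled double knockdown arrays, a difference of -0.035 ± 0.083 SE that was not called (interval -0.23 to 0.16). PGK1, which makes the first ATP, read 3993 and 3662 on the control arrays and 3267 and 3278 on the labelled double knockdown arrays (log2 difference -0.22 ± 0.089 SE, adjusted p = 0.133). Its 4 probe sets above the minimum had log2 differences of -0.22, -0.31, -0.30 and -0.23, and with their mean the gene passed the test (-0.26, adjusted p = 0.0479). PGK1 was thus lower on each of these probe sets, but it passed the test under only 1 of 15 processing alternatives.

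PGAM1, the mutase of the next step, fell 1.23-fold. Its 4 arrays read 2745 and 2767 on the control arrays and 2234 and 2239.7 on the labelled double knockdown arrays (log2 difference -0.30 ± 0.083 SE, adjusted p = 0.0473). The call is at the margin: it was lost whichever array was left out (adjusted p 0.0832 to 0.257), with quantile (0.0581) or cyclic loess normalization (0.0667) and with an added constant of 1 (0.0960). The near-identical gene PGAM4 was not analysed here, so signal of the pair on this probe set cannot be told apart. ENO1, the main enolase, had -0.12 ± 0.086 SE (interval -0.32 to 0.081). Its other probe sets above the minimum had log2 differences of -0.26 and, on a dim one, -0.083. ENO2, the neuronal form, read 9.25 to 11.7 over the 4 arrays, below the minimum.

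PKM, pyruvate kinase, which makes the last ATP and exists in M1 and M2 splice forms, had the largest fall among the tested enzymes of the list. It read 1061 and 823 on the control arrays and 557 and 559 on the labelled double knockdown arrays. The control arrays differed from each other, and both lay well above the labelled double knockdown arrays, which were nearly equal. PKM fell 1.66-fold (log2 difference -0.73 ± 0.12 SE, adjusted p = 0.00848). Its only other probe set above the minimum, a dim one, had a log2 difference of 0.051. With the mean of both the difference was -0.34 (adjusted p = 0.0366), and without double knockdown replicate 2 the adjusted p was 0.0550. The platform values do not separate the M1 and M2 forms here.

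Lactate dehydrogenase is built of A and B subunits. LDHA, a known HIF target, read 10599 and 10104 on the control arrays and 8879 and 8502 on the labelled double knockdown arrays (log2 difference -0.25 ± 0.086 SE, adjusted p = 0.0891), and LDHB 8626 and 8429 on the control arrays and 7545 and 7556 on the labelled double knockdown arrays (log2 difference -0.17 ± 0.083 SE, adjusted p = 0.204). Each had its groups apart and lower in the labelled double knockdown, and neither passed the test.

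Read along the pathway, 13 of 16 tested enzymes had a difference below 0 and 3 (PFKM, PFKP and HK2) one above 0. The median was -0.18. In 12 of the 16, both labelled double knockdown arrays lay below both control arrays, and in 2, PFKM and PFKP, above, beside 29.3% and 28.1% of all genes tested. Over all genes tested, 6740 of 12951 had a difference below 0. The 3 that fell make up 18.8% of the enzymes tested, beside the 6.60% of all genes. The differences were modest, with 15 of the 16 between -0.41 and 0.14. The median was -0.14 with cyclic loess normalization and -0.065 over the 7 enzymes left when only probe sets made for 1 transcript were used.

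**Figure D2:**
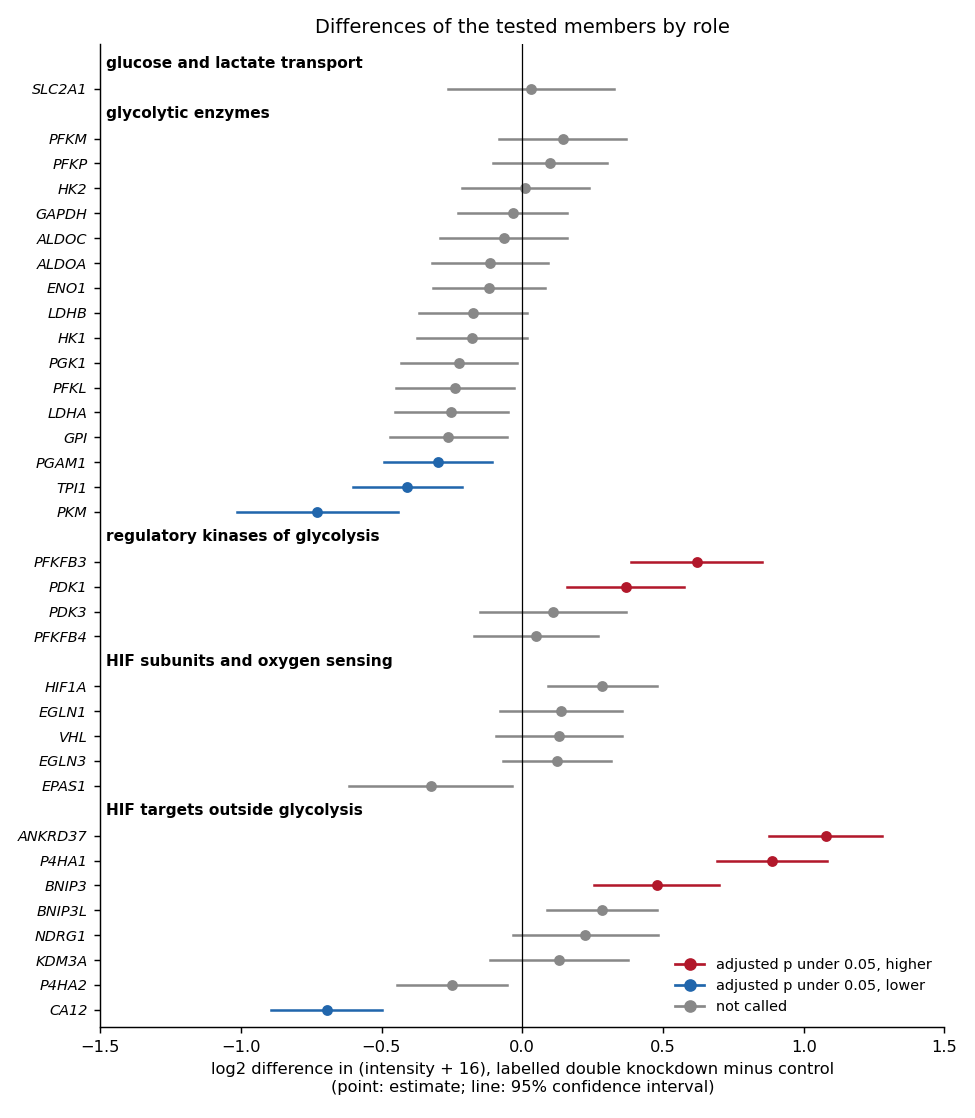
Log2 difference in (intensity + 16) of each tested member, labelled double knockdown minus control, with its 95% confidence interval, grouped by role; colour marks a call at an adjusted p under 0.05. The glycolytic enzymes lie mostly left of 0 (median -0.18), the 4 regulatory kinases right of it, and the HIF targets spread from -0.70 for CA12 to 1.08 for ANKRD37.

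Among the 4 listed kinases that steer the pathway, the calls were rises. PFKFB3 makes and breaks down fructose 2,6-bisphosphate, the strongest activator of phosphofructokinase, and works mainly as the kinase that makes it. It read 74.4 and 63.4 on the control arrays and 119.8 and 109 on the labelled double knockdown arrays. Every labelled double knockdown value was above every control value, and PFKFB3 rose 1.54-fold (log2 difference 0.62 ± 0.10 SE, adjusted p = 0.00705), or 1.66-fold without the added constant. It lost its call without double knockdown replicate 1 (adjusted p = 0.0634). PFKFB4, of the same family, had overlapping groups and a log2 difference of 0.049 ± 0.095 SE (interval -0.17 to 0.27).

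PDK1, which phosphorylates pyruvate dehydrogenase and so keeps pyruvate out of the mitochondrial cycle, read 117 and 107 on the control arrays and 152 and 146 on the labelled double knockdown arrays. It rose 1.29-fold (log2 difference 0.37 ± 0.089 SE, adjusted p = 0.0305), and its second probe set had a log2 difference of 0.17. The call was lost without control replicate 2 (adjusted p = 0.0781), without either labelled double knockdown array (0.200 and 0.157) and, narrowly, with an added constant of 1 (0.0524). PDK3, another kinase of the same enzyme, had overlapping groups and a difference of 0.11 ± 0.11 SE (adjusted p = 0.570). Of the 4 kinases, 2 rose and none fell, with a median of 0.24.

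The oxygen-sensing machinery itself held no call among 5 genes (limma; at an unadjusted p under 0.05, 1 was higher and 1 lower). HIF1A read 2945 and 2947 on the control arrays and 3647 and 3539 on the labelled double knockdown arrays, so the control pair was nearly identical and both other arrays lay above it. Its difference of 0.28 ± 0.084 SE just missed the threshold (adjusted p = 0.0564, interval 0.091 to 0.48). It passed under 7 of 15 processing alternatives, among them quantile (adjusted p = 0.0452) and cyclic loess normalization (0.0369), and in none of the 4 fits that leave out an array.

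EPAS1, which encodes HIF-2 alpha, read 1880.1 and 1453 on the control arrays and 1318 and 1315 on the labelled double knockdown arrays. All of its labelled double knockdown values lay below the control values, but control replicate 1 stood well above the rest (log2 difference -0.32 ± 0.12 SE, adjusted p = 0.122). Without control replicate 1 the difference was -0.14, and without control replicate 2 it was -0.51, so its size depends on which control array is used. The only other EPAS1 probe set above the minimum, a dim one, had a log2 difference of 0.042. On their brightest probe sets HIF1A and EPAS1 thus had differences of opposite sign, and neither was called.

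Of the HIF hydroxylases, EGLN1, the main oxygen sensor, had a log2 difference of 0.14 ± 0.093 SE and EGLN3, itself induced by HIF, 0.12 ± 0.083 SE, both with an adjusted p of 0.371. EGLN3 read 24.1 and 23.9 on the control arrays and 27.4 and 27.7 on the labelled double knockdown arrays, a small step with little spread. VHL, which binds hydroxylated HIF alpha for degradation, had 0.13 ± 0.097 SE (adjusted p = 0.420). Each of the 3 had its groups apart and higher in the labelled double knockdown, as 28.1% of all genes did.

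The HIF targets that act outside glycolysis held the largest rise of the list. Of 8 tested, 3 rose (37.5%), 1 fell (12.5%) and 4 did not pass, with a median of 0.25. Over all genes tested, 9.41% were called higher and 6.60% lower. ANKRD37, an ankyrin repeat protein induced by HIF-1, read 64.3 and 61.0 on the control arrays and 155 and 145 on the labelled double knockdown arrays. It rose 2.11-fold (log2 difference 1.08 ± 0.087 SE, adjusted p = 0.000314), and 2.39-fold without the added constant. The labelled double knockdown values were far above the control values, and the call held under all 15 alternatives, with differences from 0.76 to 1.25. Its other probe set lay below the brightness minimum, so the mean of probe sets repeated the same value.

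P4HA1, a catalytic subunit of the prolyl hydroxylase that lets collagen chains fold in the endoplasmic reticulum, read 584 and 592 on the control arrays and 1078 and 1123 on the labelled double knockdown arrays. It rose 1.85-fold (log2 difference 0.89 ± 0.084 SE, adjusted p = 0.000699) and kept its call under each of the 14 alternatives that gave it a value. The other P4HA1 probe set, the only one made for 1 transcript, lay below the brightness minimum. The alternative with such probe sets alone therefore gave no value, and the mean of probe sets repeated the same value. P4HA2, the other catalytic subunit in the list, read 457 and 481 on the control arrays and 392 and 392 on the labelled double knockdown arrays, lower in both labelled double knockdown arrays but not called (log2 difference -0.25 ± 0.085 SE, adjusted p = 0.0879). Its second probe set above the minimum had a log2 difference of 0.010, and with the mean of its probe sets the difference was -0.12 (adjusted p = 0.326), so the P4HA2 value rests on the brightest probe set.

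BNIP3 and BNIP3L are paralogs in the outer mitochondrial membrane that mark mitochondria for autophagy. BNIP3 read 901 and 1011 on the control arrays and 1290.2 and 1382 on the labelled double knockdown arrays and rose 1.39-fold (log2 difference 0.48 ± 0.096 SE, adjusted p = 0.0154). Its second probe set had a log2 difference of 0.32. The adjusted p rose to 0.0504 when control replicate 1 was left out, to 0.0716 without double knockdown replicate 1 and to 0.135 without replicate 2 of that group. BNIP3L read 395 and 378 on the control arrays and 473 and 476 on the labelled double knockdown arrays and just missed the threshold (log2 difference 0.28 ± 0.084 SE, adjusted p = 0.0580), and its second probe set had 0.0045, so its probe sets disagree.

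CA12, a membrane carbonic anhydrase that hydrates CO2 outside the cell and takes part in pH control, went against the other called targets. It read 1214 and 1151 on the control arrays and 726 and 723 on the labelled double knockdown arrays and fell 1.62-fold (log2 difference -0.70 ± 0.085 SE, adjusted p = 0.00219). Its 5 brightest probe sets had log2 differences of -0.70, -0.62, -0.71, -0.66 and -0.81, and 2 dim ones 0.030 and -0.21. CA12 kept its call under all 15 alternatives. NDRG1, a stress-induced cytoplasmic protein, had 0.22 ± 0.11 SE (interval -0.032 to 0.48), and the histone demethylase KDM3A 0.13 ± 0.11 SE (-0.12 to 0.37), neither of them called.

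**Figure D3:**
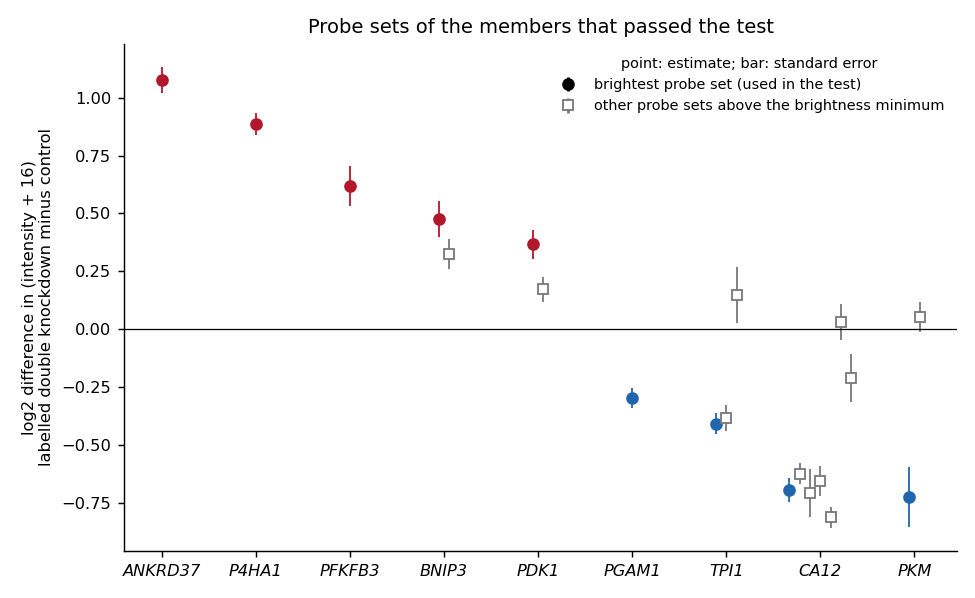
Log2 difference in (intensity + 16) with its standard error for each probe set above the brightness minimum of the 9 called members, from a fit without the brightness filter; filled circles mark the brightest probe set, open squares the others. BNIP3 and PDK1 have a second probe set of the same sign, and TPI1 and PKM each have a dim one above 0. CA12 has 5 bright ones between -0.81 and -0.62 and dim ones at 0.030 and -0.21.

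HIF binds DNA at the letters ACGTG or GCGTG. The promoters of the 4 called targets outside glycolysis are shown because 3 of these genes rose and 1 fell; the windows run from 250 bases before to 50 bases after the start site (RefSeq, GRCh38.p14), 5′ to 3′ on the gene's strand, with ACGTG and GCGTG on either strand in capitals.
ANKRD37, chr4:185396591-185396890, plus strand: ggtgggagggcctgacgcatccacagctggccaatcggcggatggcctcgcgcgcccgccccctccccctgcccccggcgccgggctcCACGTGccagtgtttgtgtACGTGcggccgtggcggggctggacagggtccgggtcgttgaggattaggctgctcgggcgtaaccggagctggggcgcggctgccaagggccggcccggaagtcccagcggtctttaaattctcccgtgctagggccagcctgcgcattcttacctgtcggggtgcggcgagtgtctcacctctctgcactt
P4HA1, chr10:73096817-73097116, minus strand: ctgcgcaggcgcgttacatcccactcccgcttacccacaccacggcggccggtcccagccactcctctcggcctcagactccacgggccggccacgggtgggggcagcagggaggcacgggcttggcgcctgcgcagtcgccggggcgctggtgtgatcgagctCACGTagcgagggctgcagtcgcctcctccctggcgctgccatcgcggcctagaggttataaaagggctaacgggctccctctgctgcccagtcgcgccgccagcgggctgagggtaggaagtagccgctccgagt
BNIP3, chr10:131981874-131982173, minus strand: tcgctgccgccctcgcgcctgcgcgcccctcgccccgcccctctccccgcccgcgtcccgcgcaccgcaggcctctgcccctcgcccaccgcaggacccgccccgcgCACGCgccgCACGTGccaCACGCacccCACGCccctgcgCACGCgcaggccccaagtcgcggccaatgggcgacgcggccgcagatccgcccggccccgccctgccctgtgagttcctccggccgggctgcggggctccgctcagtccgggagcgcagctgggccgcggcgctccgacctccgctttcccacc
CA12, chr15:63381797-63382096, minus strand: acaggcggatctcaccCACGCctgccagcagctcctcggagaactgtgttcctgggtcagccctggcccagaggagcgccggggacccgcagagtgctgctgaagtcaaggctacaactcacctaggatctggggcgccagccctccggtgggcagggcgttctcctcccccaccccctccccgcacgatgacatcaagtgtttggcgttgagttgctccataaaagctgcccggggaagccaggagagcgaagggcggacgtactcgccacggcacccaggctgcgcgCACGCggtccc

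The window of ANKRD37 held 2 marked stretches, 1 of them CACGTG, which reads ACGTG on both strands and is also the E-box of other factors. Their first bases lay at positions -162 and -143, counted from the start site at 1. The window of P4HA1 held 1 stretch, at -86, and that of BNIP3 a cluster of 5 from -143 to -104, 1 of them CACGTG. The window of CA12 held 2 stretches, both GCGTG on the opposite strand, at -234 and 40. Promoter windows of 34 members were used, 62 windows in all. These are not the same 34 as the members tested, since they include CA9, SLC16A3 and ENO2. A motif was in 42 of the 62 (67.7%), in 6 of the 7 windows of the 5 risen members (85.7%) and in 3 of the 5 windows of the 4 fallen ones (60.0%). It was in 28 of the 43 windows of members not called (65.1%). Counted by gene, 5 of 5 risen and 3 of 4 fallen members had one, too few to compare the groups. Among 15143 windows of tested genes 59.2% held a motif, and among all 35116 windows 48.4%. These letters are common, and a match describes the sequence only.

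Set side by side, 0 of 16 glycolytic enzymes rose and 3 fell (18.8%) at an adjusted p under 0.05 (limma). Of 8 HIF targets outside the pathway, 3 rose (37.5%) and 1 fell (12.5%). Over all genes tested, 9.41% were called higher and 6.60% lower. At an unadjusted p under 0.05 (limma), 0 enzymes were higher and 7 lower, and 4 targets were higher and 2 lower. At that threshold 2079 of all 12951 genes tested were higher and 1880 lower. The medians of the enzymes and the targets were -0.18 and 0.25, against -0.0086 over all genes. The division was not clean. CA12 and P4HA2 lay below 0 among the targets, and the enzymes that fell, TPI1, PGAM1 and PKM, include genes that HIF is also known to raise. PFKFB3 and PDK1, which also rose, stood in neither group, since the list placed them among the regulatory kinases. Members of both groups were chosen with results of these data known, and no test of the difference between the groups was made.

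Other genes known to be induced by low oxygen were then read from a list. Of 34 listed, 29 were tested, 8 rose (27.6%) and 3 fell (10.3%), beside 9.41% and 6.60% of all genes, with a median of 0.10. LOX, an enzyme that crosslinks collagen, read 30.7 and 30.6 on the control arrays and 108 and 102 on the labelled double knockdown arrays and rose 2.60-fold (log2 difference 1.38 ± 0.085 SE, adjusted p = 9.08e-05). Its relative LOXL2 rose 2.42-fold (log2 difference 1.28 ± 0.13 SE, adjusted p = 0.000820), with a difference of 0.45 for the mean of its probe sets. STC2, a secreted glycoprotein, read 158 and 106 on the control arrays and 372 and 326 on the labelled double knockdown arrays and rose 2.50-fold (log2 difference 1.32 ± 0.16 SE, adjusted p = 0.00213). VEGFA, the main growth factor of blood vessels, read 448 and 303 on the control arrays and 949 and 880.0 on the labelled double knockdown arrays and rose 2.42-fold (log2 difference 1.27 ± 0.16 SE, adjusted p = 0.00266), with 0.82 for the mean of its probe sets. INSIG2, which holds back sterol synthesis, rose 1.46-fold (log2 difference 0.55 ± 0.084 SE, adjusted p = 0.00577) and lost its call without double knockdown replicate 2 (adjusted p = 0.0660). LOXL2 read 52.5 and 36.8 on the control arrays and 132 and 127 on the labelled double knockdown arrays. LOXL2, STC2 and VEGFA had a wide control pair, and in each gene named here the groups did not overlap.

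The list was not uniform. ERO1A, ADM and MXI1, commonly raised by HIF, had log2 differences of -0.086, 0.14 and -0.071 with overlapping groups, and HILPDA had 0.25 ± 0.096 SE (adjusted p = 0.120). The 3 that fell were the transferrin receptor TFRC, the ephrin EFNA3 and the glycogen branching enzyme GBE1, with differences of -0.47, -0.46 and -0.41, named after their values were seen. Leaving out either labelled double knockdown array ended each of these 3 calls (adjusted p 0.0620 to 0.170), and TFRC also lost its call without control replicate 2 (0.0668). What raised or lowered these genes was not tested. Of 10 other components of the HIF pathway, 8 were tested and none was called (limma; 1, lower, at an unadjusted p under 0.05), with a median of -0.11. ARNT, the partner subunit of both HIF alpha proteins, had -0.18 ± 0.10 SE (adjusted p = 0.281).

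**Figure D4:**
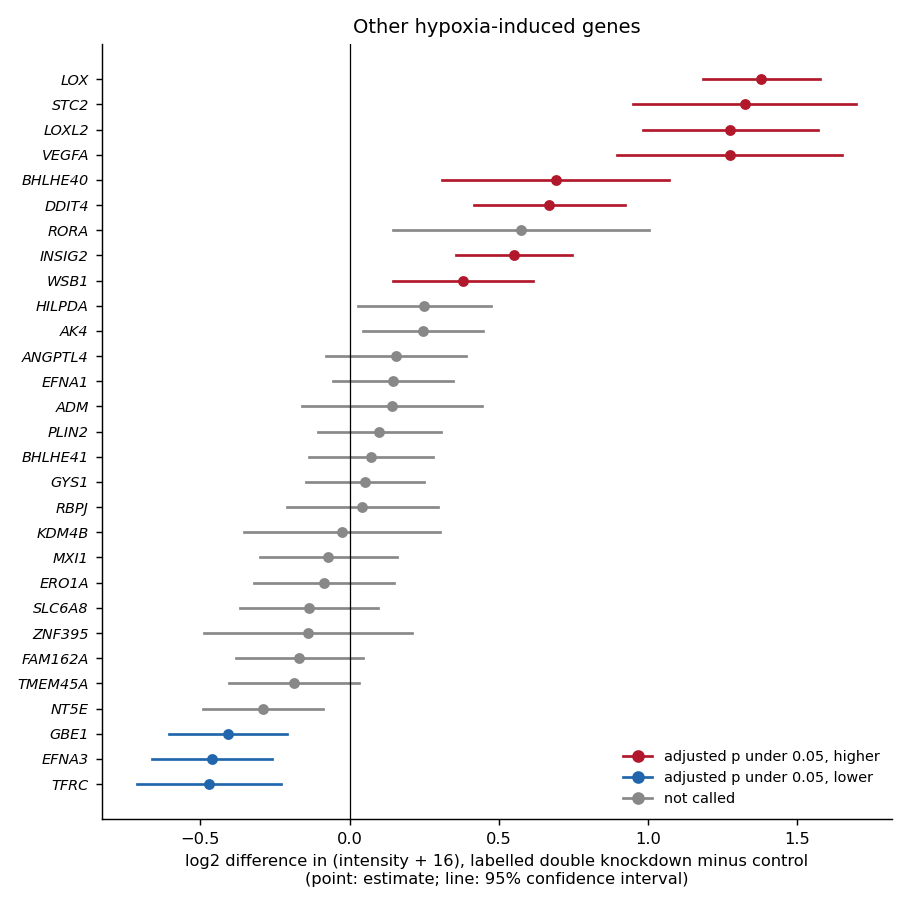
Log2 difference in (intensity + 16), labelled double knockdown minus control, with its 95% confidence interval for the 29 tested genes of the list of other hypoxia-induced genes; colour marks a call at an adjusted p under 0.05. LOX, STC2, LOXL2 and VEGFA stand at 1.38, 1.32, 1.28 and 1.27, while 18 of the 29 were not called.

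The fate of pyruvate and the branches of the pathway were read from lists of the same kind. Of 38 other genes of glycolysis and pyruvate use, 28 were tested, 2 rose (7.14%) and 4 fell (14.3%), beside 9.41% and 6.60% of all genes, with a median of -0.022. The 21.4% called in all lie near the 16% of all genes, so the genes below are given as single values, not as a result about the list. PDP1, the phosphatase that reactivates pyruvate dehydrogenase and so opposes the PDK kinases, read 724 and 715 on the control arrays and 1217 and 1225 on the labelled double knockdown arrays and rose 1.68-fold (log2 difference 0.75 ± 0.083 SE, adjusted p = 0.00139). SLC16A7, the lactate and pyruvate carrier MCT2, rose 1.67-fold (log2 difference 0.74 ± 0.11 SE, adjusted p = 0.00440), with 0.44 for the mean of its probe sets. BPGM, which makes 2,3-bisphosphoglycerate, fell 1.44-fold (log2 difference -0.53 ± 0.11 SE, adjusted p = 0.0154). PDHB, a subunit of pyruvate dehydrogenase, read 1483 and 1674 on the control arrays and 1154 and 1176 on the labelled double knockdown arrays and fell 1.35-fold (log2 difference -0.43 ± 0.094 SE, adjusted p = 0.0210). PDK4 read 109.8 and 145 on the control arrays and 78.5 and 86.7 on the labelled double knockdown arrays and fell 1.44-fold (log2 difference -0.53 ± 0.13 SE, adjusted p = 0.0283), so it moved opposite to PDK1, while PDK1 and the opposing phosphatase PDP1 both rose.

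Of these, PDP1 and SLC16A7 kept their calls whichever array was left out. BPGM lost its call without double knockdown replicate 1 (adjusted p = 0.0599) or 2 (0.125). PDHB and PDK4 lost theirs without control replicate 2 (0.0566 and 0.0668) and without double knockdown replicate 1 (0.138 and 0.158) or 2 (0.126 and 0.0988). The remaining called gene was PFKFB2, a relative of PFKFB3, with a log2 difference of -0.39 ± 0.11 SE (adjusted p = 0.0428). It lost its call under 7 alternatives, with -0.15 for the mean of its probe sets (adjusted p = 0.340).

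None of 7 tested genes of the pentose phosphate pathway was called (limma; 0 at an unadjusted p under 0.05), with differences from -0.14 to 0.11 and a median of -0.13. Of 10 tested genes of glycogen metabolism, GBE1, which also stands in the hypoxia list, was the only one called. A further list of 9 genes held transcription factors of glycolytic genes and glucose-responsive genes. Of these 9, 2 fell (22.2%), beside 6.60% of all genes. The 7 not called were the transcription factors MYC, MAX, MLXIP, MLX, MLXIPL, USF1 and USF2 (limma, MAX alone lower at an unadjusted p under 0.05). The 2 that fell, TXNIP and ARRDC4, are arrestin-domain proteins known to restrain glucose uptake. Both are known targets of the glucose sensor MLXIP. TXNIP read 4958 and 4444 on the control arrays and 1539 and 1593 on the labelled double knockdown arrays (log2 difference -1.57 ± 0.093 SE, adjusted p = 8.31e-05), and ARRDC4 134 and 124 on the control arrays and 40.4 and 36.0 on the labelled double knockdown arrays (log2 difference -1.42 ± 0.092 SE, adjusted p = 0.000111). ARRDC4 fell 2.68-fold, or 3.38-fold without the added constant. MLXIP itself had 0.0022 ± 0.15 SE (adjusted p = 0.998) and MYC, another activator of glycolytic genes, -0.11 ± 0.15 SE (0.697), neither of them called.

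Across the 9 called members, 3 (ANKRD37, P4HA1 and CA12) were called in every alternative that gave them a value, and the same 3 were called whichever array was left out. All 3 are HIF targets outside glycolysis. The other 6 lost their call under at least 1 alternative, and 7 members that were not called passed under at least 1. Among the 9, only TPI1 changed sign.

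**Figure D5:**
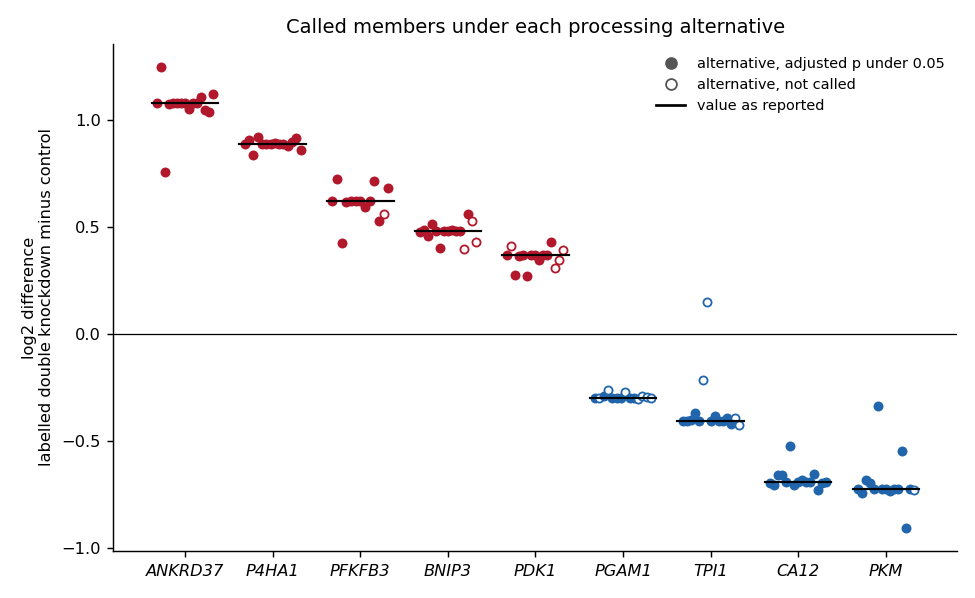
Log2 difference of each called member under each processing alternative (circles; filled where the adjusted p was under 0.05), with the reported value as a line; without one array, another normalization, constant, filter, variance prior, block or choice of probe sets each give 1 circle. ANKRD37, P4HA1 and CA12 stay filled throughout, PGAM1 is filled under 7 of 14, and TPI1 crosses 0 once.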

How the data were processed

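Total RNA of 4 samples was hybridised to Affymetrix U133 Plus 2.0 arrays; titles gave each sample's group and number. The deposited table gives a linear intensity for each probe set on each array (the scale was read from the range of values). The authors' summarisation and normalization are not given in the sources used here, and none was added. Of 54675 probe sets, 62 control probe sets were left out, 41091 named 1 gene, 1801 several and 11721 none; 41037 were matched by gene ID to RefSeq (GRCh38.p14) for current symbols. Each gene was read on its brightest probe set and tested when its mean intensity was at least 14.7, the median over probe sets.

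Differences in log2(intensity + 16) were tested over all 12951 genes by limma (version 3.58.1, under R 4.3.3; functions lmFit and eBayes, two-sided, no covariate, 4 arrays), with Benjamini-Hochberg adjustment and a threshold of 0.05. The test was tested on simulated data. Members and lists were chosen with earlier results of these data known. All members were accounted for; of each other list at most 5 called genes by smallest p were named, beside others chosen after their values were seen. The 15 alternatives cover the constant, normalization, filter, probe sets, variance prior, a replicate block and each array left out. Precision is limited by the number of arrays.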

Additional observations from a re-analysis of the deposited data

How the results depend on the processing

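The 5 higher and 4 lower calls among the members changed most with the number of arrays and the probe sets used. With 1 array left out, 2 to 4 members were called higher and 1 to 4 lower, and 536 to 1995 of all genes were called against 2074; these fits have fewer arrays. With probe sets of single-transcript type alone, 3 members were higher and 2 lower of the 18 that could be tested. The median of the glycolytic enzymes was -0.065 in that setting, over 7 genes, and -0.14 with cyclic loess normalization, and lay between -0.20 and -0.16 with 1 array left out. The median of the HIF targets was 0.18 with the mean of probe sets and lay between 0.24 and 0.34 with 1 array left out. TPI1 reversed to 0.15 on probe sets of single-transcript type, where its dim probe set is the only one left. With the replicate block, taking sample numbers as pairs, 5 members were higher and 4 lower and 2504 genes were called in all. The numbers are not known to pair the samples: deviations of same-numbered samples correlated at r = 0.24 over 12951 genes, with 2 arrays per group. Other settings left the counts within 1.5 times those reported, and the scaling alternatives moved the median of all genes by less than 0.1.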
